A study of Mus musculus with 12 samples.

Results

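The 31 genes described here encode the glucose and lactate transporters, the enzymes of glycolysis, the regulators of that pathway and the core of the hypoxia response. They were chosen by name, and all 31 were found once each among the 49585 genes of the deposited table. RNA from nuclei of mouse spinal cord was sequenced in 12 libraries, which the labels call microglia-specific. The question of the study was how the microglial transcriptome changes over the first 14 days after spinal cord injury. The injured groups were cords 3, 7 and 14 days after injury, with 3 libraries each, and they were set against 3 sham libraries, which carry the label of 7 days. All mice were C57BL/6, each library pooled cord tissue within 5 mm of the injury from 3 animals, and nuclei that held GFP were pulled down on magnetic beads by an antibody. The GFP allele, and so the cell types it labels, is not given in the sources used here, nor are sex and age. The RNA is nuclear, so the values include transcripts not yet exported to the cytoplasm. The labels do not say whether the pools of a group were collected or processed on separate days, so p-values measure the spread between these libraries, part of which may be technical.

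Glycolysis splits glucose into pyruvate. Hexokinase traps glucose in the cell, phosphofructokinase commits it to the pathway, and pyruvate kinase makes the end product, which lactate dehydrogenase can turn into lactate for export. When oxygen is low, the prolyl hydroxylases encoded by the Egln genes no longer mark HIF1α for destruction through VHL, and the protein accumulates and binds a short core sequence in its target promoters, among them those of most glycolytic enzymes. Macrophages and microglia activated by inflammatory signals are also known to raise glycolysis.

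Promoters were searched for that core, spelled ACGTG or GCGTG and read on both strands, in the RefSeq promoter table of GRCm38.p6, which holds 250 bases before to 50 after each transcription start. The table held 30 of the 31 members, in 42 windows. Slc2a3 was not in it. A core was present for 26 of 30 members, or 86.7%, against 46.7% of the 27025 genes of the table. A gene counts here if any of its windows holds a core, so genes with more windows have more chances. By window the share was 78.6% of the members' 42 windows, against 43.8% of all 32851 windows. ACGTG was present in 19 members (63.3%, against 21.8% of all genes) and GCGTG in 18 members (60.0%, against 35.2%). The palindrome CACGTG, which counts as ACGTG on both strands, was present in 6 members (20.0%, against 8.09%). The members' windows were also richer in G and C, with a median of 63.0% against 52.7% over all windows, and both cores contain mostly those bases. A match is only a description of letters. Gys1, Gpi1, Vhl and Tpi1 held no core in these windows. The promoters shown belong to the 5 members with the smallest adjusted p for any difference among the 4 groups that held a match, so that the cores can be seen beside the genes that the test separated most clearly, which is not an order of fold change. Capitals mark ACGTG or GCGTG, or their reverse complements CACGT and CACGC where the match lies on the other strand. The windows are chr2:27027949-27028248 (minus strand) for Slc2a6, chr10:78009758-78010057 (minus) for Pfkl, chr9:59656977-59657276 (plus) for Pkm, chr7:46845554-46845853 (plus) for Ldha and chr2:11502041-11502340 (minus) for Pfkfb3, each written 5′ to 3′ along the gene. Pkm, Ldha and Pfkfb3 had 2 windows each, and the one with more matches is shown.
Slc2a6: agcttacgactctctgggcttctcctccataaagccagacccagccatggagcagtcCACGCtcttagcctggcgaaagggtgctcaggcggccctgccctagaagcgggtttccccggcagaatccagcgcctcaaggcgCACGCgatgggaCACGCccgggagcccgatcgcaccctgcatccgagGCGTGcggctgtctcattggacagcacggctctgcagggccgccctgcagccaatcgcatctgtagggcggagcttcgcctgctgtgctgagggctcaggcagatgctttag
Pfkl: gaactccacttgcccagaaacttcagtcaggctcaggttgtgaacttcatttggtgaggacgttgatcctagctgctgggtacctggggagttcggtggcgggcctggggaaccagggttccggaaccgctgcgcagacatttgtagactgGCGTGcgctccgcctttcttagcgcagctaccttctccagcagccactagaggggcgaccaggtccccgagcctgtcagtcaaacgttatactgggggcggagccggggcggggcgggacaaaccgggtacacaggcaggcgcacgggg
Pkm: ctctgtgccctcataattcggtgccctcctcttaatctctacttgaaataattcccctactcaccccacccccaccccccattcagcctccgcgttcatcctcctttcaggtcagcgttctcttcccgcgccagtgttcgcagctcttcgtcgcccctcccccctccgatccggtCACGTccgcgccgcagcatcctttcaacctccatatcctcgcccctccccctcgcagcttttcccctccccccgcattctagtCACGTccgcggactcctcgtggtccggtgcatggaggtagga
Ldha: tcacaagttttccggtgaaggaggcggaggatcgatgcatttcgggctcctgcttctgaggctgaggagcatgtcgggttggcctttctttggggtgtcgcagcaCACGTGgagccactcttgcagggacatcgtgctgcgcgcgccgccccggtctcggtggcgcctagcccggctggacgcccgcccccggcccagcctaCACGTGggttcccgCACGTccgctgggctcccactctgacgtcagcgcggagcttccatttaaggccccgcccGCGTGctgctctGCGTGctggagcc
Pfkfb3: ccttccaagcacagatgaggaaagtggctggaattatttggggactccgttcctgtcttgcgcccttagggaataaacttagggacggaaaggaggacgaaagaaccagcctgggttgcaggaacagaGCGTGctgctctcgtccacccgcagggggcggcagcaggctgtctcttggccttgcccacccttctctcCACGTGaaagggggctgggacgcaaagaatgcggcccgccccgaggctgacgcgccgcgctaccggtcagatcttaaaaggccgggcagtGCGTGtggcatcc
Ldha carried the most, with 5 matches to ACGTG and 2 to GCGTG, while Slc2a6 carried 4 to GCGTG, Pkm 2 to ACGTG, Pfkfb3 2 of each and Pfkl 1 to GCGTG.

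Library totals ranged from 4003480 to 10670804 counts, and the members had 6 to 2866 counts in a library, with the lowest for Ddit4. All 31 members passed the filter on low counts, as did 18451 genes in all. The 10 microglial markers summed to 3274 to 3838 CPM at 3 days, 4228 to 5391 CPM at 7 days and 3654 to 4566 CPM at 14 days, against 4856 to 6160.1 CPM in sham. Libraries of the groups also differed in other cells' markers, which all tissue-level values here share: in RNA from pooled nuclei, fewer cells of a type and less RNA per cell cannot be told apart. The 10 monocyte and macrophage markers summed to 1291 to 1929 CPM at 3 days, 278 to 633 CPM at 7 days and 734 to 859 CPM at 14 days, against 137 to 191 CPM in sham, and the 10 endothelial markers to 233 to 526 CPM at 3 days, 49.0 to 61.1 CPM at 7 days and 339.7 to 349 CPM at 14 days, against 40.5 to 155 CPM in sham. The 10 neuronal markers summed to 689 to 863 CPM at 3 days, 857 to 1169.9 CPM at 7 days and 1116 to 1623 CPM at 14 days, against 1578 to 3211 CPM in sham, the 8 astrocyte markers to 1354 to 2239 CPM at 3 days, 1595 to 2023 CPM at 7 days and 2202 to 2595 CPM at 14 days, against 551 to 5037 CPM in sham and the 10 fibroblast and pericyte markers to 379.7 to 954 CPM at 3 days, 65.1 to 165 CPM at 7 days and 619 to 731 CPM at 14 days, against 66.0 to 527 CPM in sham. The 8 border-associated macrophage markers summed to 150.3 to 297 CPM at 3 days, 249 to 577 CPM at 7 days and 166 to 294 CPM at 14 days, against 398 to 872 CPM in sham, the 8 oligodendrocyte markers to 918 to 1307 CPM at 3 days, 586 to 897 CPM at 7 days and 887 to 1304 CPM at 14 days, against 843 to 1556 CPM in sham and the 7 precursor markers to 132 to 206 CPM at 3 days, 81.2 to 106 CPM at 7 days and 134 to 138 CPM at 14 days, against 130.1 to 239 CPM in sham. The astrocyte sum rested largely on Slc1a3 and Slc1a2, with 2394 and 1412 CPM in sham replicate 4. By the edgeR test described below, 2 of the 8 astrocyte markers rose against sham at 3 days (10.9% of all tested genes). At 7 days 0 rose and 1 fell (4.61% and 4.67%), and at 14 days 4 rose (5.02%). Neutrophil markers stayed at 13.8 CPM or less and T and B cell markers at 9.80 CPM or less. No marker of these lists was at 0 in all 12 libraries. Sham replicate 4 stood apart from the other libraries on the second principal component, at 119.8 against 26.8 for the next library. It had the highest astrocyte and neuronal marker sums. The part of these markers in the results was not tested.

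At 3 days, 14 of the 31 members rose against sham and 1 fell, by the edgeR quasi-likelihood test with a Benjamini-Hochberg adjusted p under 0.05. Over all tested genes 10.9% rose and 9.17% fell in that comparison. At 7 days 7 members rose and 0 fell, against 4.61% and 4.67% of all genes. At 14 days 11 rose and 1 fell, against 5.02% and 4.79%. The median log2 fold change of the members was 0.71 at 3 days, 0.44 at 7 days and 0.51 at 14 days, while that of all tested genes was -0.03, 0.01 and -0.05 in the same order of days. Of the 31 members, 17, 11 and 20 had injured and sham libraries that did not overlap at 3, 7 and 14 days, against 34.2%, 22.8% and 29.7% of all genes. The 3 comparisons share the sham libraries. The test of any difference among the 4 groups called 17 members (26.4% of all genes). Between injury times, 2 members were higher and 5 lower at 7 than at 3 days, against 5.85% and 7.52% of all genes. At 14 days 1 member was higher and 1 lower than at 7 days, against 1.35% and 0.835%. At 14 days 0 were higher and 2 lower than at 3 days, against 2.17% and 5.14%. The median log2 fold change of the members was -0.30 for 7 against 3 days, 0.02 for 14 against 7 days and -0.11 for 14 against 3 days, while that of all tested genes was 0.01, -0.05 and -0.01 for these comparisons. Members took 0.221 to 0.261% of all counts at 3 days, 0.196 to 0.242% at 7 days and 0.229 to 0.244% at 14 days, against 0.122 to 0.174% in sham.

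At all 3 times 6 members rose: the transporter Slc2a6, the enzymes Pfkl, Gapdh, Pkm and Ldha, and the regulator Pfkfb3. Slc2a1, Slc16a3, Aldoa and Bnip3 passed the test at 3 and 14 days, and Gpi1, Eno1 and Gys1 at 3 days. Hk2 passed at 3 and 7 days and Hif1a at 14 days. Ldhb was lower at 3 days and Hk3 at 14 days. Tpi1, Pgk1, Hk1, Pfkm, Pfkfb4, Pdk1, Slc2a3, Slc16a1, Vhl, Egln1, Egln3 and Ddit4 passed in none of the 6 pairwise comparisons, although Slc16a1 passed the test of any difference. The highest group mean was at 3 days for 12 members, at 7 days for 8, at 14 days for 8 and in sham for 3.

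**Figure D1:**
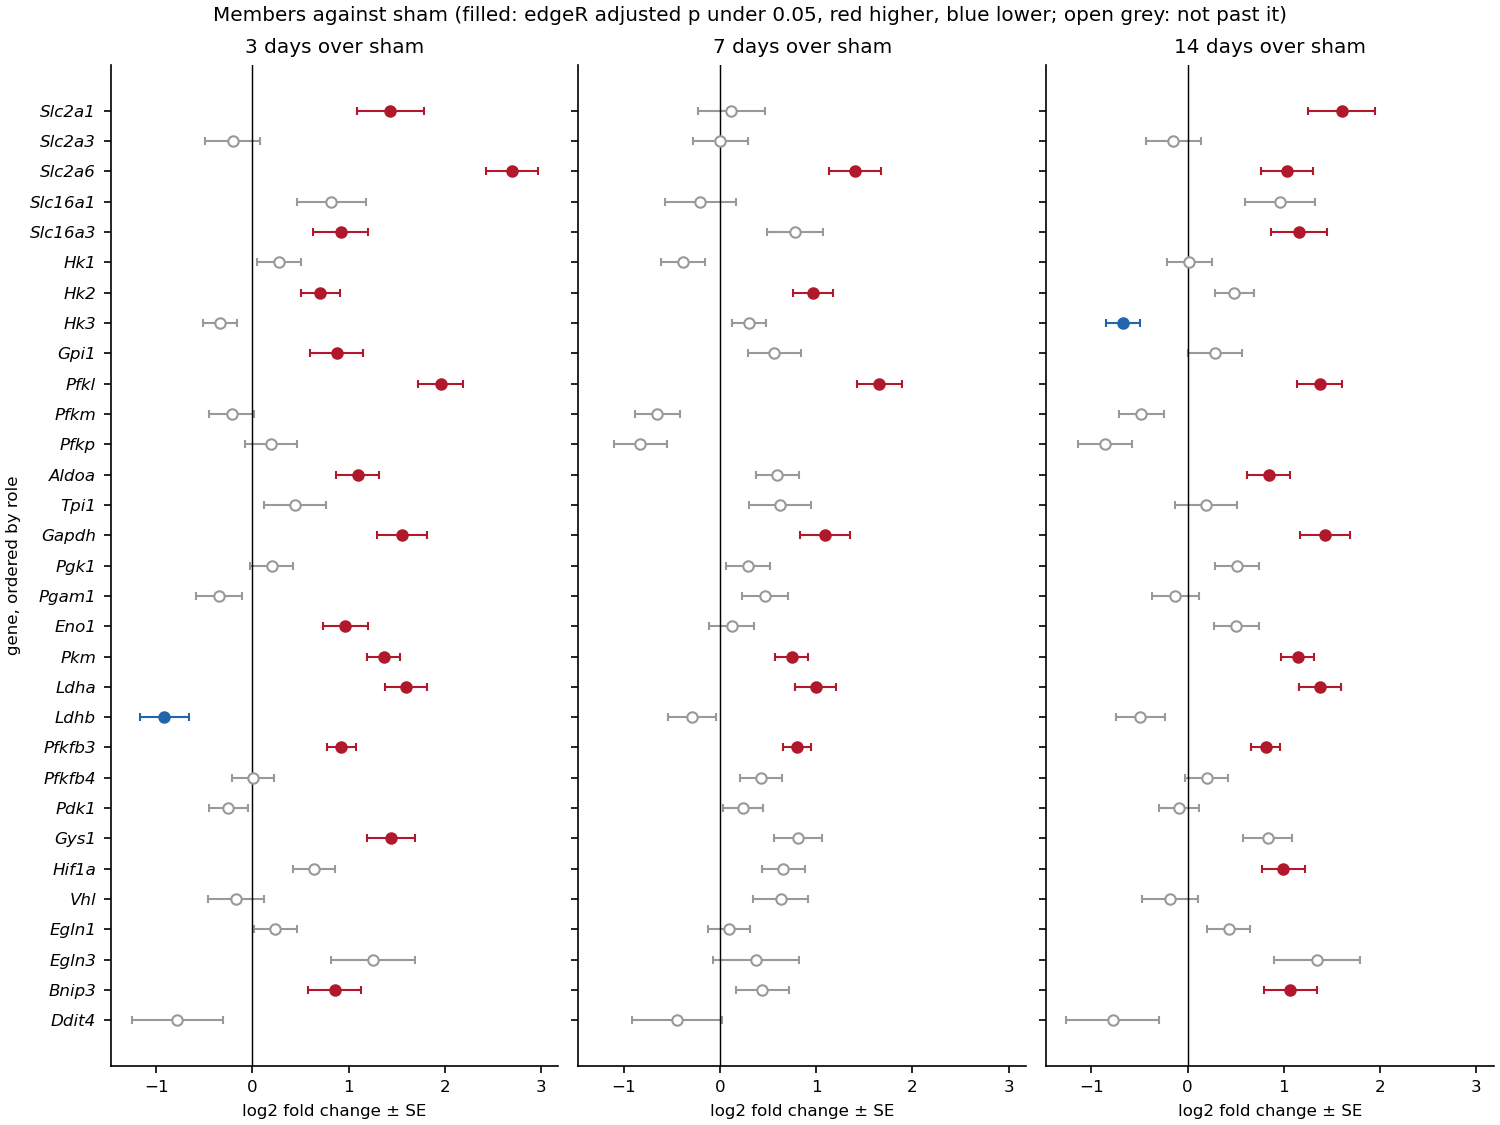
Log2 fold change of each of the 31 members at 3, 7 and 14 days against sham, with its SE. Filled points passed the edgeR test (red higher, blue lower) and open grey points did not: 14, 7 and 11 members are red, and Ldhb at 3 days and Hk3 at 14 days are blue.

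Levels between genes can be compared only per length, so the deposited RPKM are used for that. Averaged over the 12 libraries, Ldhb was the most abundant member at 66.5 RPKM, followed by Pkm at 45.7, Pfkfb3 at 36.3, Hk2 at 34.7, Hif1a at 32.4 and Hk3 at 29.1 RPKM. The lowest were Hk1 at 2.86, Slc2a3 at 1.84 and Ddit4 at 1.59 RPKM. All values from here on, unless given as RPKM, are TMM-scaled CPM, which are counts scaled to the size of the library, given in the order of replicates 1, 2 and 3 for 3 and 14 days, 1, 3 and 4 for 7 days and 2, 3 and 4 for sham. Differences are log2 ratios of the group named first to the other, from the edgeR fit, with the SE, on n = 3 libraries a group. Group means are given with the SD over the same 3 libraries.

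**Figure D2:**
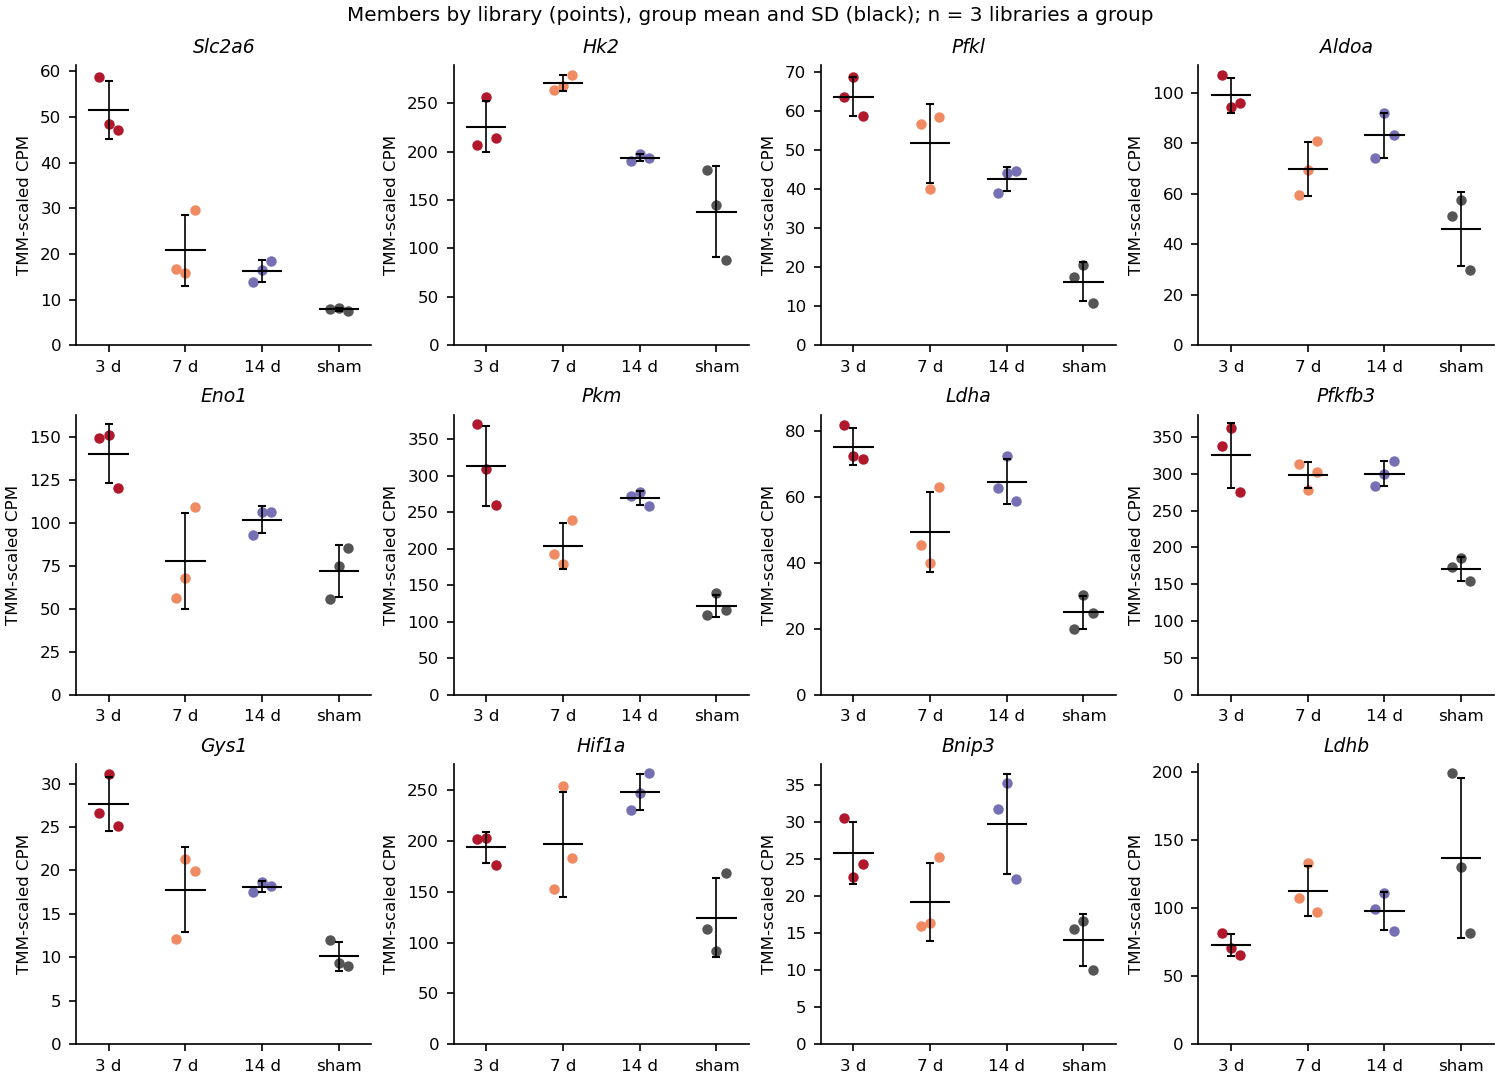
TMM-scaled CPM of 12 members in each library (points) with the group mean and SD (black), for 3, 7 and 14 days and then sham. Slc2a6 at 3 days lies at 47.1 to 58.8 CPM, above every sham library (7.56 to 8.23 CPM).

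Glucose is carried across membranes by the GLUT family. Slc2a6, at chr2:27021363-27027998 on GRCm38, encodes GLUT6, a transporter known from mouse macrophages. It had 58.8, 48.5 and 47.1 CPM at 3 days, 16.8, 15.8 and 29.7 CPM at 7 days and 13.9, 16.4 and 18.5 CPM at 14 days. Sham libraries held 7.87, 8.23 and 7.56 CPM. It was highest at 3 days, and every injured library exceeded every sham library. Slc2a6 differed from sham by a log2 ratio of 2.70 ± 0.27 (adjusted p = 1.71e-05, edgeR) at 3 days. It was 1.401 ± 0.27 (adjusted p = 0.00626, edgeR) at 7 days and 1.03 ± 0.27 (adjusted p = 0.0253, edgeR) at 14 days. The 14-day call ended without any 1 of the 3 14-day libraries or sham replicate 2 (0.94 to 1.14, edgeR adjusted p = 0.053 to 0.113). Between times it was lower at 7 than at 3 days, at a log2 ratio of -1.30 ± 0.25 (adjusted p = 0.00564, edgeR), and lower at 14 than at 3 days, at a log2 ratio of -1.66 ± 0.25 (adjusted p = 0.00116, edgeR).

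Slc2a1 encodes GLUT1, the main glucose carrier of the blood-brain barrier endothelium. It had 89.5, 92.4 and 139.6 CPM at 3 days, 41.1, 33.3 and 54.8 CPM at 7 days and 115, 135 and 112 CPM at 14 days. The sham values were 21.6, 28.8 and 70.3 CPM. The 3- and 14-day libraries were above all sham libraries, while the 7-day libraries overlapped sham, in which replicate 4 was highest. Slc2a1 differed from sham by a log2 ratio of 1.43 ± 0.35 (adjusted p = 0.0102, edgeR) at 3 days and 1.60 ± 0.35 (adjusted p = 0.01, edgeR) at 14 days. For Slc2a1 the 3-day call ended without 3-day replicate 3 (1.17, edgeR adjusted p = 0.0605). Slc2a1 was lower at 7 than at 3 days at a log2 ratio of -1.31 ± 0.34 (adjusted p = 0.0221, edgeR). For Slc2a1 that call ended without 3-day replicate 3 or 7-day replicate 1 or 3 (-1.06 to -1.27, edgeR adjusted p = 0.0819 to 0.13). It was higher at 14 than at 7 days at a log2 ratio of 1.48 ± 0.34 (adjusted p = 0.0403, edgeR). For Slc2a1 that call ended without 3-day replicate 1 or 2, 7-day replicate 1 or 3 or any 1 of the 3 14-day libraries (1.32 to 1.57, edgeR adjusted p = 0.0535 to 0.162).

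The 10 endothelial markers were high and low in the same groups as Slc2a1. Their sum was 233, 269 and 526 CPM at 3 days, 49.0, 57.8 and 61.1 CPM at 7 days and 339.7, 342 and 349 CPM at 14 days. Sham stood at 43.0, 40.5 and 155 CPM. Against sham 9 of the 10 rose at 3 days, 0 rose and 1 fell at 7 days, and 4 rose at 14 days. All 10 were lower at 7 than at 3 days and 8 were higher at 14 than at 7 days. The fibroblast and pericyte sum and the monocyte and macrophage sum were likewise higher at 3 and 14 than at 7 days in every library. Sham replicate 4, which had the highest sham value of Slc2a1, also had the highest sham endothelial sum. It was highest in sham for the fibroblast and pericyte (527 CPM), monocyte and macrophage (191 CPM) and astrocyte (5037 CPM) sums too. Pkm, Ldha, Gapdh and Eno1 also had lower means at 7 than at 3 and 14 days, while Hk2, Hk3 and Pgam1 had their highest mean at 7 days. The part of endothelial or other cells' RNA in the results of Slc2a1 and of the other members was not tested. Slc2a3, the neuronal and leukocyte transporter GLUT3, did not pass the test, with means of 12.3 ± 3.16 CPM at 3 days, 14.2 ± 3.95 CPM at 7 days and 12.8 ± 0.710 CPM at 14 days, against 14.2 ± 2.24 CPM in sham (SD).

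Lactate leaves and enters through the monocarboxylate transporters. Slc16a3 encodes MCT4, the exporter of glycolytic cells. It had 24.8, 16.4 and 12.9 CPM at 3 days, 18.4, 11.6 and 18.5 CPM at 7 days and 19.4, 19.9 and 24.1 CPM at 14 days. The level in sham was 9.39, 10.5 and 8.40 CPM. The injured libraries were above all sham libraries at each time. Slc16a3 differed from sham by a log2 ratio of 0.92 ± 0.29 (adjusted p = 0.0372, edgeR) at 3 days and 1.16 ± 0.29 (adjusted p = 0.0214, edgeR) at 14 days. The 3-day call ended without 3-day replicate 1 or 2, any 1 of the 3 14-day libraries or any 1 of the 3 sham libraries (0.60 to 0.97, edgeR adjusted p = 0.0566 to 0.191). For Slc16a3 the 14-day call ended without any 1 of the 3 14-day libraries (1.06 to 1.22, edgeR adjusted p = 0.0559 to 0.0971). Slc16a1 encodes MCT1, also found on endothelium, and had 16.2, 14.3 and 29.8 CPM at 3 days, 5.87, 14.6 and 9.23 CPM at 7 days and 23.4, 19.2 and 24.3 CPM at 14 days. In sham it had 8.78, 10.3 and 15.7 CPM. Its values at 14 days were above sham and above 7 days, and it passed the test of any difference (edgeR adjusted p = 0.0454) but no pairwise comparison. Bsg, the partner that carries MCT1 and MCT4 to the membrane and abundant on that endothelium, had a log2 ratio to sham of 1.62 ± 0.33 (adjusted p = 0.00328, edgeR) at 3 days and 1.87 ± 0.33 (adjusted p = 0.00277, edgeR) at 14 days. Bsg was lower at 7 than at 3 days at a log2 ratio of -1.75 ± 0.32 (adjusted p = 0.00495, edgeR), and higher at 14 than at 7 days at a log2 ratio of 2.00 ± 0.33 (adjusted p = 0.0133, edgeR). For Bsg that call ended without 7-day replicate 1 or 3 or 14-day replicate 1 or 2 (1.75 to 2.09, edgeR adjusted p = 0.0529 to 0.0779).

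**Figure D3:**
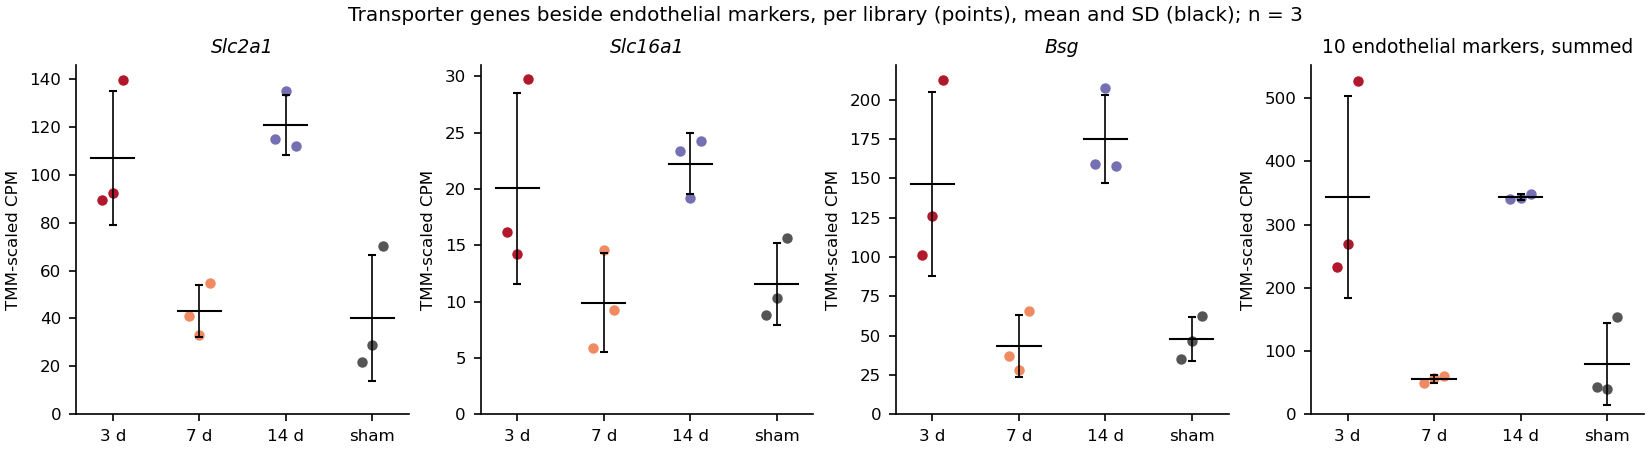
TMM-scaled CPM of Slc2a1, Slc16a1, Bsg and the summed 10 endothelial markers in each library (points), with mean and SD (black), for 3, 7 and 14 days and then sham. All 4 panels have their 2 highest means at 3 and 14 days.

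Of the 9 enzymes of upper glycolysis, 4 rose at 3 days, 2 at 7 days and 2 at 14 days, where 1 fell. Over all tested genes 10.9%, 4.61% and 5.02% rose at these times, and 4.79% fell at 14 days. Hk2, the inducible hexokinase, had 207, 256 and 215 CPM at 3 days, 264, 268 and 279.9 CPM at 7 days and 191, 197 and 194 CPM at 14 days. Sham libraries held 182, 145 and 88.2 CPM. Every injured library exceeded every sham library. Hk2 differed from sham by a log2 ratio of 0.71 ± 0.21 (adjusted p = 0.0252, edgeR) at 3 days and 0.97 ± 0.21 (adjusted p = 0.0109, edgeR) at 7 days. The 3-day call ended without 3-day replicate 2 or 3 (0.59 to 0.72, edgeR adjusted p = 0.0683 to 0.114), and without sham replicate 4, the lowest of its group, the value was 0.44 (edgeR adjusted p = 0.0494). Hk3, a hexokinase of blood cells, went the other way at 14 days, with 95.9, 105 and 79.5 CPM at 3 days, 163, 139.8 and 135 CPM at 7 days and 74.9, 71.8 and 76.6 CPM at 14 days. The sham values were 143, 115 and 96.3 CPM. The 14-day libraries were all below sham, at a log2 ratio of -0.67 ± 0.18 (adjusted p = 0.0268, edgeR). For Hk3 that call ended without any 1 of the 3 14-day libraries or sham replicate 2 (-0.52 to -0.68, edgeR adjusted p = 0.0755 to 0.114). Hk3 was higher at 7 than at 3 days at a log2 ratio of 0.64 ± 0.18 (adjusted p = 0.0269, edgeR). For Hk3 that call ended without 3-day replicate 1 or 3 or 7-day replicate 1 or 3 (0.55 to 0.70, edgeR adjusted p = 0.0534 to 0.144). It was lower at 14 than at 7 days at a log2 ratio of -0.97 ± 0.18 (adjusted p = 0.0174, edgeR). For Hk3 that call ended without 7-day replicate 1 or 3 or any 1 of the 3 14-day libraries (-0.89 to -1.01, edgeR adjusted p = 0.0612 to 0.0973). Hk1, the housekeeping form, had means of 29.7 ± 2.47 CPM at 3 days, 18.7 ± 4.96 CPM at 7 days and 24.7 ± 2.73 CPM at 14 days, against 24.6 ± 3.85 CPM in sham and did not pass.

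Glucose phosphate isomerase (Gpi1) had 115, 95.6 and 91.4 CPM at 3 days, 76.3, 75.0 and 91.6 CPM at 7 days and 73.7, 62.6 and 63.5 CPM at 14 days. Sham stood at 84.2, 50.1 and 28.6 CPM. The 3-day libraries were all above sham, at a log2 ratio of 0.88 ± 0.28 (adjusted p = 0.0374, edgeR). That call ended without any 1 of the 3 3-day libraries, 7-day replicate 1 or 3, any 1 of the 3 14-day libraries or sham replicate 3 or 4 (0.54 to 0.92, edgeR adjusted p = 0.0505 to 0.126), and without sham replicate 2 the value was 1.32 (edgeR adjusted p = 0.00161). Its 1 near-identical copy held 7.39% of its counts, and with that copy added the fold change was 0.82 (edgeR adjusted p = 0.0523). Gm26762 on the opposite strand overlaps Gpi1 by 741 bases and held 1417 counts beside the 5478 of Gpi1, and the strand setting is not given. Aldolase A (Aldoa), which cleaves fructose bisphosphate, had 107, 94.4 and 95.8 CPM at 3 days, 59.5, 69.6 and 80.9 CPM at 7 days and 74.0, 92.1 and 83.3 CPM at 14 days. The level in sham was 51.2, 57.6 and 29.7 CPM. All injured libraries exceeded all sham libraries, and the log2 ratio to sham was 1.10 ± 0.22 (adjusted p = 0.00341, edgeR) at 3 days and 0.84 ± 0.22 (adjusted p = 0.0256, edgeR) at 14 days. The 14-day call ended without any 1 of the 3 14-day libraries (0.78 to 0.93, edgeR adjusted p = 0.0561 to 0.0988). Triose phosphate isomerase (Tpi1) did not pass, with means of 20.8 ± 6.67 CPM at 3 days, 23.3 ± 6.26 CPM at 7 days and 17.3 ± 2.84 CPM at 14 days, against 15.0 ± 5.70 CPM in sham.

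The phosphofructokinases differed from one another. Pfkl, the liver form, at chr10:77986947-78010083, had 63.5, 68.9 and 58.8 CPM at 3 days, 56.8, 40.2 and 58.4 CPM at 7 days and 39.0, 44.2 and 44.6 CPM at 14 days. In sham it had 17.4, 20.6 and 10.9 CPM. The lowest injured library was above the highest sham library. Pfkl differed from sham by a log2 ratio of 1.96 ± 0.24 (adjusted p = 7.68e-05, edgeR) at 3 days. It was 1.66 ± 0.24 (adjusted p = 0.000889, edgeR) at 7 days and 1.37 ± 0.24 (adjusted p = 0.00237, edgeR) at 14 days. No library left out ended any of these 3 calls. Pfkm, the muscle form, did not pass, with means of 19.1 ± 2.22 CPM at 3 days, 14.1 ± 3.08 CPM at 7 days and 15.8 ± 1.70 CPM at 14 days, against 22.1 ± 2.53 CPM in sham. Pfkp, the platelet form, had means of 81.1 ± 16.2 CPM at 3 days, 39.9 ± 7.17 CPM at 7 days and 39.1 ± 4.12 CPM at 14 days, against 70.5 ± 30.96 CPM in sham. Against sham its adjusted p was 0.0718 at 7 days and 0.0638 at 14 days by edgeR. It was lower at 7 than at 3 days at a log2 ratio of -1.02 ± 0.28 (adjusted p = 0.0254, edgeR) and lower at 14 than at 3 days at a log2 ratio of -1.05 ± 0.28 (adjusted p = 0.0321, edgeR). Those calls ended without 3-day replicate 1 or 3 or any 1 of the 3 7-day libraries (-0.84 to -1.14, edgeR adjusted p = 0.0512 to 0.143) and without any 1 of the 3 3-day libraries or any 1 of the 3 14-day libraries (-0.88 to -1.14, edgeR adjusted p = 0.0523 to 0.174). Pitrm1 on the opposite strand overlaps Pfkp by 748 bases and held 5573 counts beside the 4261 of Pfkp, and the strand setting is not given.

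Of the 5 enzymes of lower glycolysis, 3 rose at 3 days, 2 at 7 days and 2 at 14 days, against 10.9%, 4.61% and 5.02% of all tested genes. Pyruvate kinase (Pkm), at chr9:59656368-59679375, had 370.1, 309 and 260.1 CPM at 3 days, 192, 179 and 239.5 CPM at 7 days and 272, 277 and 258 CPM at 14 days. Sham libraries held 109.7, 139 and 116 CPM. All injured libraries exceeded all sham libraries. Pkm differed from sham by a log2 ratio of 1.36 ± 0.17 (adjusted p = 0.000111, edgeR) at 3 days. It was 0.74 ± 0.17 (adjusted p = 0.0161, edgeR) at 7 days and 1.15 ± 0.17 (adjusted p = 0.000947, edgeR) at 14 days. For Pkm the 7-day call ended without 7-day replicate 4 (0.58, edgeR adjusted p = 0.0798). Pkm was lower at 7 than at 3 days at a log2 ratio of -0.62 ± 0.17 (adjusted p = 0.027, edgeR). For Pkm that call ended without 3-day replicate 1 or 2 or 7-day replicate 1 or 3 (-0.48 to -0.64, edgeR adjusted p = 0.0647 to 0.115). A gene model on the same strand, Gm49759, overlaps Pkm by 767 bases and held 7897 counts beside the 15995 of Pkm. How reads in that overlap were assigned is not given. Enolase (Eno1) had 149, 151 and 120.1 CPM at 3 days, 56.1, 67.8 and 109 CPM at 7 days and 93.0, 106 and 106 CPM at 14 days. The sham values were 55.4, 74.8 and 85.4 CPM. Its 3-day libraries were all above sham, at a log2 ratio of 0.97 ± 0.23 (adjusted p = 0.01, edgeR). Its 3 near-identical copies held 12.03% of its counts, and with them added the value was 0.89 (edgeR adjusted p = 0.0141). Eno1 was lower at 7 than at 3 days at a log2 ratio of -0.85 ± 0.23 (adjusted p = 0.0271, edgeR). For Eno1 that call ended without any 1 of the 3 3-day libraries or 7-day replicate 1 or 3 (-0.65 to -0.93, edgeR adjusted p = 0.0668 to 0.118). Phosphoglycerate mutase (Pgam1) was higher at 7 than at 3 days at a log2 ratio of 0.82 ± 0.24 (adjusted p = 0.036, edgeR), with means of 32.0 ± 3.58 CPM at 3 days, 56.3 ± 20.2 CPM at 7 days and 37.3 ± 2.74 CPM at 14 days, against 40.8 ± 7.77 CPM in sham. For Pgam1 that call ended without any 1 of the 3 3-day libraries, 7-day replicate 3 or any 1 of the 3 14-day libraries (0.51 to 0.90, edgeR adjusted p = 0.0556 to 0.16). Phosphoglycerate kinase (Pgk1) did not pass, with means of 19.5 ± 3.38 CPM at 3 days, 20.7 ± 2.34 CPM at 7 days and 24.2 ± 1.78 CPM at 14 days, against 16.9 ± 3.03 CPM in sham.

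Glyceraldehyde phosphate dehydrogenase (Gapdh) makes the NADH of glycolysis, and its gene shares sequence with many copies. It had 71.1, 68.7 and 51.0 CPM at 3 days, 37.1, 34.2 and 66.1 CPM at 7 days and 57.1, 60.3 and 56.6 CPM at 14 days. Sham stood at 17.3, 21.3 and 26.6 CPM. All injured libraries were above all sham libraries. Gapdh differed from sham by a log2 ratio of 1.56 ± 0.26 (adjusted p = 0.000957, edgeR) at 3 days. It was 1.09 ± 0.26 (adjusted p = 0.019, edgeR) at 7 days and 1.43 ± 0.26 (adjusted p = 0.00372, edgeR) at 14 days. For Gapdh the 7-day call ended without 7-day replicate 4 (0.69, edgeR adjusted p = 0.101). Iffo1 on the opposite strand overlaps Gapdh by 68 bases and held 19143 counts beside the 3354 of Gapdh, and the strand setting is not given. The annotation holds 78 near-identical Gapdh copies elsewhere in the genome (at least 95% identity over 200 bases). Of these, 77 were among the genes of the deposited counts, 75 of them with counts. Together the 77 held 15400 counts against 3354 for Gapdh itself, or 459% of its own. The copies summed to 254, 203 and 199 CPM at 3 days, 167, 152 and 198 CPM at 7 days and 262, 351 and 251 CPM at 14 days, against 152, 227 and 384 CPM in sham. With the copies added, the log2 ratio of Gapdh to sham was 0.03 ± 0.26 at 3 days (adjusted p = 0.944 in edgeR). It was -0.34 ± 0.26 at 7 days (adjusted p = 0.423 in edgeR). It was 0.33 ± 0.26 at 14 days (edgeR adjusted p = 0.446). How reads that match several places were handled is not given in the sources used here, so the Gapdh values depend on a choice that cannot be read from the files.

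**Figure D4:**
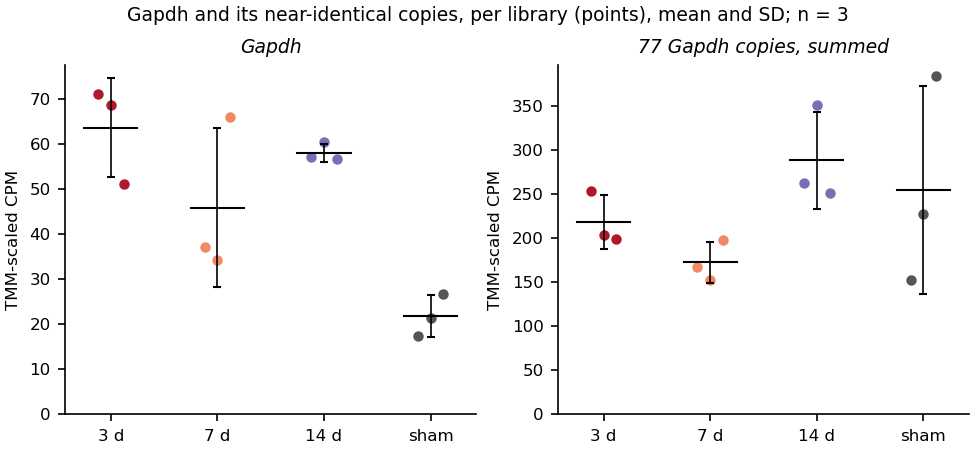
TMM-scaled CPM of Gapdh and of the 77 near-identical copies in the deposited counts, summed, in each library (points). Mean and SD are shown, for 3, 7 and 14 days and then sham. Gapdh itself is at 17.3 to 26.6 CPM in sham and higher in all injured libraries, while the copies are at 152 to 384 CPM in sham and overlap the injured libraries.

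Lactate dehydrogenase is a tetramer of A and B subunits, and these 2 genes moved apart at 3 days. Ldha, which favours the making of lactate, lies at chr7:46841475-46855627. It had 81.8, 72.4 and 71.5 CPM at 3 days, 45.5, 39.8 and 63.0 CPM at 7 days and 62.7, 72.2 and 58.8 CPM at 14 days. The level in sham was 20.0, 30.2 and 24.6 CPM. All injured libraries exceeded all sham libraries. Ldha differed from sham by a log2 ratio of 1.60 ± 0.22 (adjusted p = 0.000198, edgeR) at 3 days. It was 0.99 ± 0.22 (adjusted p = 0.0122, edgeR) at 7 days and 1.38 ± 0.22 (adjusted p = 0.00136, edgeR) at 14 days. For Ldha the 7-day call ended without 7-day replicate 4 (0.74, edgeR adjusted p = 0.0639). Ldhb, the subunit that favours pyruvate, had 82.0, 71.0 and 65.8 CPM at 3 days, 107, 133 and 97.1 CPM at 7 days and 99.6, 111 and 82.9 CPM at 14 days. In sham it had 199, 129.8 and 82.0 CPM. The 3-day libraries were all below sham, although 3-day replicate 1 and sham replicate 4 were equal to 3 digits, at a log2 ratio of -0.92 ± 0.26 (adjusted p = 0.021, edgeR). For Ldhb that call ended without 3-day replicate 2 or 3 or sham replicate 2 (-0.57 to -0.91, edgeR adjusted p = 0.0673 to 0.0833). Of the 10 neuronal markers 8 were also lower at 3 days, against 9.17% of all tested genes. Within sham the neuronal sum was 1578, 1730 and 3211 CPM in replicates 2, 3 and 4, of which Snap25 alone had 668, 950 and 2058 CPM. Single neuronal markers ran both ways over these replicates, with Syn1 at 44.2, 57.4 and 302 CPM and Gad1 at 19.2, 16.0 and 15.1 CPM. The part of neuronal RNA in the Ldhb result was not tested.

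Shares of a family's summed RPKM show which form made up most of the RNA, as a description with no test. Ldha made up 32.1, 32.6 and 34.0% at 3 days, 16.7, 12.4 and 23.5% at 7 days and 23.0, 23.6 and 25.2% at 14 days, against 4.55, 9.93 and 12.5% in sham of Ldha plus Ldhb. Every injured library exceeded every sham library except 7-day replicate 3, which lay just under sham replicate 4. Pfkl made up 50.7, 54.0 and 42.8% at 3 days, 61.3, 51.1 and 56.9% at 7 days and 46.3, 52.9 and 52.1% at 14 days, against 17.2, 23.8 and 18.6% in sham of the phosphofructokinase RNA and was the largest share in every injured library, while in all 3 sham libraries it was the smallest. Hk2 averaged 56.8 ± 2.40% at 3 days, 52.0 ± 2.89% at 7 days and 58.4 ± 1.21% at 14 days, against 39.1 ± 5.02% in sham of the hexokinase RNA (SD). Hk3 averaged 38.0 ± 2.61% at 3 days, 45.4 ± 3.22% at 7 days and 36.3 ± 0.970% at 14 days, against 55.6 ± 2.98% in sham. Slc2a6 averaged 33.8 ± 7.36% at 3 days, 30.7 ± 2.90% at 7 days and 12.3 ± 1.98% at 14 days, against 17.5 ± 6.76% in sham of the summed RPKM of Slc2a1, Slc2a3 and Slc2a6.

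**Figure D5:**
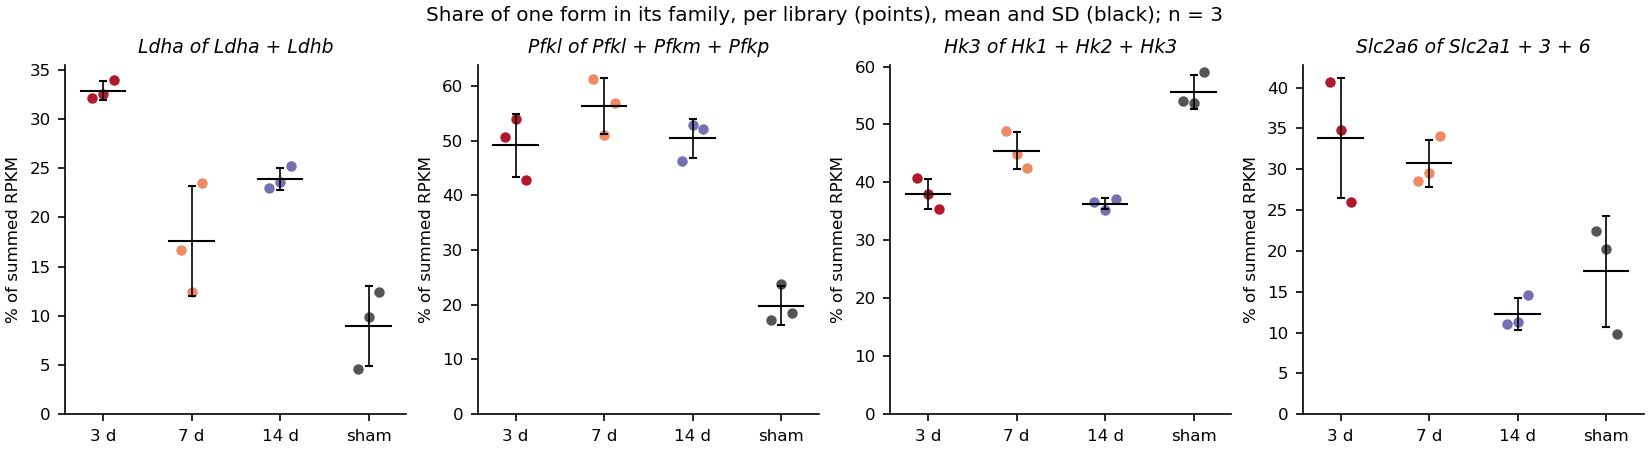
Share of Ldha, Pfkl, Hk3 and Slc2a6 in the summed RPKM of their families (percent) in each library (points), with mean and SD (black), for 3, 7 and 14 days and then sham. Ldha and Pfkl have larger mean shares in the injured groups than in sham, and Hk3 a smaller one.

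Among the regulators, Pfkfb3, at chr2:11471433-11554077, makes an isomer of fructose bisphosphate that activates phosphofructokinase. It had 337, 362 and 275 CPM at 3 days, 314, 278 and 303 CPM at 7 days and 283, 299.9 and 318 CPM at 14 days. Sham libraries held 173, 186 and 154 CPM. All injured libraries exceeded all sham libraries, and the log2 ratio to sham was 0.92 ± 0.15 (adjusted p = 0.00072, edgeR) at 3 days. It was 0.80 ± 0.15 (adjusted p = 0.00547, edgeR) at 7 days and 0.81 ± 0.15 (adjusted p = 0.0038, edgeR) at 14 days. No library left out ended these calls. Pfkfb4, its relative, did not pass, with means of 41.8 ± 3.97 CPM at 3 days, 55.9 ± 12.2 CPM at 7 days and 47.6 ± 5.10 CPM at 14 days, against 41.4 ± 9.66 CPM in sham. Pdk1 holds back the use of pyruvate in the mitochondrion, and did not pass. Its means were 106 ± 15.1 CPM at 3 days, 149 ± 11.4 CPM at 7 days and 119 ± 9.91 CPM at 14 days. The sham mean was 126 ± 38.5 CPM. Gys1, which makes glycogen, had 26.6, 31.1 and 25.2 CPM at 3 days, 12.2, 21.3 and 19.9 CPM at 7 days and 17.5, 18.7 and 18.3 CPM at 14 days. The sham values were 11.96, 9.37 and 8.96 CPM. The injured libraries were above sham at all 3 times, at a log2 ratio of 1.44 ± 0.25 (adjusted p = 0.00136, edgeR) at 3 days, while the adjusted p in edgeR was 0.0578 at 7 days and 0.0517 at 14 days. A gene on the opposite strand, Ruvbl2, overlaps Gys1 by 310 bases and held 1405 counts beside the 1342 of Gys1. The strand setting is not given.

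Of the 4 genes for HIF and its oxygen sensors, 1 passed a test against sham. Hif1a had 202, 203 and 176 CPM at 3 days, 153, 254 and 183 CPM at 7 days and 231, 248 and 266 CPM at 14 days. Sham stood at 114, 92.1 and 168 CPM. The 3- and 14-day libraries were all above sham, and at 7 days the groups overlapped. Hif1a differed from sham by a log2 ratio of 1.00 ± 0.22 (adjusted p = 0.011, edgeR) at 14 days. For Hif1a that call ended without 14-day replicate 3 (0.95, edgeR adjusted p = 0.0537), and the edgeR adjusted p was 0.0518 at 3 days and 0.0705 at 7 days. Gm15283 on the opposite strand overlaps Hif1a by 330 bases and held 1958 counts beside 13135, so without a known strand setting reads there cannot be told apart. HIF1α is controlled mostly as a protein, which was not measured. Egln3, the hydroxylase that HIF itself induces, did not pass, with means of 16.5 ± 2.15 CPM at 3 days, 8.80 ± 5.68 CPM at 7 days and 17.5 ± 1.53 CPM at 14 days, against 7.00 ± 2.17 CPM in sham and an edgeR adjusted p of 0.0574 at 3 days and 0.0691 at 14 days. Egln1, the main sensor, had means of 34.3 ± 2.63 CPM at 3 days, 31.01 ± 4.00 CPM at 7 days and 39.0 ± 5.55 CPM at 14 days, against 29.2 ± 7.19 CPM in sham, and did not pass. Nor did Vhl, the recognition subunit of the ubiquitin ligase, which had 18.2, 20.9 and 20.2 CPM at 3 days, 33.5, 38.6 and 31.4 CPM at 7 days and 19.1, 20.1 and 19.6 CPM at 14 days. The level in sham was 34.8, 18.7 and 12.3 CPM. Vhl was higher at 7 days than at 3 or 14 days in every library, but no test of those differences passed. Bnip3, a mitophagy receptor and HIF target, had 30.5, 22.6 and 24.3 CPM at 3 days, 15.9, 16.4 and 25.3 CPM at 7 days and 31.8, 35.3 and 22.3 CPM at 14 days. In sham it had 15.6, 16.7 and 10.1 CPM. It was above sham in all libraries at 3 and 14 days, at a log2 ratio of 0.86 ± 0.28 (adjusted p = 0.0395, edgeR) and 1.07 ± 0.28 (adjusted p = 0.0243, edgeR). The 3-day call ended without any 1 of the 3 3-day libraries, any 1 of the 3 14-day libraries or sham replicate 2 or 4 (0.64 to 0.93, edgeR adjusted p = 0.0517 to 0.144). For Bnip3 the 14-day call ended without 14-day replicate 1 or 2 (0.95 to 1.02, edgeR adjusted p = 0.0927 to 0.102). Ddit4, an inhibitor of mTORC1, had means of 2.14 ± 0.393 CPM at 3 days, 2.73 ± 0.555 CPM at 7 days and 2.18 ± 0.650 CPM at 14 days, against 3.65 ± 1.75 CPM in sham and did not pass.

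Other genes of the same pathways are given by list, each with the number tested. Over all tested genes 10.9% rose and 9.17% fell at 3 days, 4.61% and 4.67% at 7 days, and 5.02% and 4.79% at 14 days, so a count of 1 or 2 genes in these lists is not read as a result about the list. Of 22 other hypoxia targets, 7 rose and 0 fell at 3 days, 3 rose and 0 fell at 7 days, and 2 rose and 0 fell at 14 days. Their median log2 fold change was 0.42 at 3 days, -0.00 at 7 days and 0.38 at 14 days. The transcriptional repressor Bhlhe40 had a log2 ratio to sham of 2.98 ± 0.22 (adjusted p = 1.51e-06, edgeR) at 3 days. It was 2.14 ± 0.22 (adjusted p = 7.08e-05, edgeR) at 7 days and 3.18 ± 0.22 (adjusted p = 1.56e-06, edgeR) at 14 days. The lipid droplet protein Plin2 had 2.27 ± 0.36 (adjusted p = 0.000681, edgeR) at 3 days. It was 1.96 ± 0.36 (adjusted p = 0.00522, edgeR) at 7 days and 1.60 ± 0.36 (adjusted p = 0.0123, edgeR) at 14 days. For Plin2 the 14-day call ended without 14-day replicate 3 (1.54, edgeR adjusted p = 0.0508). The angiogenic factor Vegfa had 1.35 ± 0.21 (adjusted p = 0.00054, edgeR) at 3 days. Of 14 genes of oxygen sensing and HIF subunits, 1 rose and 2 fell at 3 days, 1 rose and 2 fell at 7 days, and 1 rose and 0 fell at 14 days. Os9 rose at 3 days at a log2 ratio of 1.06 ± 0.22 (adjusted p = 0.00461, edgeR). Rbx1, the ring subunit of the VHL ligase, had -1.26 ± 0.32 (adjusted p = 0.0133, edgeR). For Rbx1 that call ended without 3-day replicate 2 (-1.20, edgeR adjusted p = 0.0556).

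Of 17 other glycolysis genes, 1 rose and 2 fell at 3 days, 1 rose and 0 fell at 7 days, and 2 rose and 1 fell at 14 days, with a median of 0.01 at 3 days. Bsg was the gene that rose at 3 days. The lactate transporter Slc16a7 had a log2 ratio to sham of -1.70 ± 0.26 (adjusted p = 0.000465, edgeR) at 3 days, and the fructose transporter Slc2a5, a gene known from microglia, had -1.69 ± 0.41 (adjusted p = 0.0101, edgeR). Tigar, a phosphatase that opposes glycolysis, had 1.18 ± 0.24 (adjusted p = 0.00851, edgeR) at 7 days. Of 16 glycogen genes, 3 rose and 1 fell at 3 days, 2 rose and 0 fell at 7 days, and 2 rose and 0 fell at 14 days. The glycogen phosphorylase Pygl had 1.21 ± 0.27 (adjusted p = 0.00688, edgeR) at 3 days and 1.38 ± 0.28 (adjusted p = 0.00741, edgeR) at 7 days. Of 10 genes of the pentose phosphate pathway, 2 rose and 0 fell at 3 days, 1 rose and 0 fell at 7 days, and 0 passed at 14 days. Its dehydrogenase Pgd had 0.83 ± 0.15 (adjusted p = 0.00188, edgeR) at 3 days. Of 16 genes of the tricarboxylic acid cycle, 1 rose and 3 fell at 3 days, 0 passed at 7 days and 0 rose and 1 fell at 14 days. The ligase subunit Sucla2 had -1.03 ± 0.24 (adjusted p = 0.00808, edgeR) at 3 days. Of 12 genes of pyruvate entry, 0 rose and 1 fell at 3 days, 0 rose and 1 fell at 7 days and 0 passed at 14 days. The 3-day gene was the mitochondrial pyruvate carrier Mpc1, with -0.85 ± 0.27 (adjusted p = 0.0402, edgeR). For Mpc1 that call ended without 3-day replicate 2 or 3, any 1 of the 3 14-day libraries or sham replicate 3 (-0.66 to -0.88, edgeR adjusted p = 0.0536 to 0.156).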

How the data were processed

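The authors deposited 2 tables over the same 12 libraries, one of raw counts by Ensembl ID and one of RPKM, the count divided by gene length and library size. A recalculation from the counts gave the deposited RPKM to within a relative 9.6e-15. Tools named by the submitters' processing notes are featureCounts 1.4.6-p3 and, as builds, GRCm38 and mm10. The aligner is not given in the sources used here, nor is the strand setting or the treatment of multi-mapping reads. Per the labels' protocols the RNA was amplified isothermally from a single primer, so counts are not independent molecules.

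Counts were tested with edgeR 4.0.16 (R 4.3.3): filterByExpr, TMM scaling and the quasi-likelihood F-test, with 1 model for all 12 libraries and group as its only term. The filter left 18451 genes with 99.6% of all counts, and 15460 genes had no count at all. Benjamini-Hochberg adjustment ran over every tested gene, separately for the 6 pairwise contrasts and for the joint test, at 0.05. Each SE was obtained as log2 ratio over root F, and the common biological coefficient of variation was 0.271. Replicates correlated at 0.880 to 0.979 on the log scale. Members, lists and tests were chosen with earlier results of these data known. Each member is accounted for. Hif1a and members past 0.05 against sham are given in every library, and from every other list up to 4 genes with the smallest adjusted p could be named. Loci and near-identical copies came from the GENCODE annotation of GRCm38 and promoters from RefSeq. Alternatives replaced TMM by RLE, edgeR by DESeq2 1.42.0, and counts by limma 3.58.1 on log2(RPKM + 1) or log2(RPKM + 0.1). Others dropped the filter or tightened it (1 CPM in 3 libraries, mean 5 CPM), added a replicate block or summed Y-linked expression, used the 2 groups alone, or left out each library. Adding the counts of near-identical copies was chosen after seeing the data. The edgeR script was tested on simulated data. Python 3.11.15 and matplotlib 3.10.9 drew the figures.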

Additional observations from a re-analysis of the deposited data

Results flagged for a closer look

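The direct test between injury times separated the response of 7 members at 7 and 3 days, 2 at 14 and 7 days and 2 at 14 and 3 days, all by edgeR with the log2 fold change of the later against the earlier time. At 7 against 3 days the values were -1.31 for Slc2a1, -1.30 for Slc2a6, -1.02 for Pfkp, -0.85 for Eno1, -0.62 for Pkm, 0.82 for Pgam1 and 0.64 for Hk3. At 14 against 7 days they were 1.48 for Slc2a1 and -0.97 for Hk3. At 14 against 3 days they were -1.66 for Slc2a6 and -1.05 for Pfkp. The earlier text gives their values in every library or group, the adjusted p and the libraries on which each call rests, and of these 11 only the 2 calls of Slc2a6 held without any 1 of the 12 libraries.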

How the results depend on the processing

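Counts of members past the threshold (edgeR, adjusted p under 0.05) are given as higher and lower, with 14 and 1 at 3 days, 7 and 0 at 7 days and 11 and 1 at 14 days against sham, 2 and 5 for 7 against 3 days, 1 and 1 for 14 against 7 days and 0 and 2 for 14 against 3 days in the analysis as reported. Size factors and the stricter filter moved none of these by over 1.5 times. With only the 2 groups compared, 9 were higher and 0 lower at 3 days, 1 was higher at 7 days, 0 were lower at 14 days, 4 were higher for 7 against 3 days, 2 were higher and 3 lower for 14 against 7 days, and 2 were higher and 6 lower for 14 against 3 days. With limma on log2(RPKM + 1), 0 were lower at 3 days, 0 lower at 14 days, 0 higher and 3 lower for 7 against 3 days and 1 lower for 14 against 3 days. With limma on log2(RPKM + 0.1) these were again 0, 0, 0, 3 and 1, and 0 were higher for 14 against 7 days. With no filter 1 was lower at 7 days, 2 lower at 14 days, 4 higher for 7 against 3 days and 2 higher for 14 against 7 days. With DESeq2 1 was lower at 7 days, 2 lower at 14 days, 8 lower for 7 against 3 days and 2 higher for 14 against 7 days. With Y-linked expression as a covariate 1 was higher and 3 lower for 7 against 3 days and 1 lower for 14 against 3 days. In every case the cause was not tested.

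With the replicate number as a block, 5 were higher for 7 against 3 days, and 2 were higher and 2 lower for 14 against 7 days; no other count moved by over 1.5 times. Deviations of same-numbered libraries correlated at -0.298 to 0.0694 over 13 pairs, so the numbers were not taken to pair the libraries, and libraries did not all correlate best with their own number.

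Leaving out each library in turn gave, as higher and lower, 10 to 15 and 0 to 3 at 3 days, 4 to 10 and 0 to 1 at 7 days, 7 to 13 and 0 to 3 at 14 days, 0 to 5 and 1 to 9 for 7 against 3 days, 0 to 2 and 0 to 3 for 14 against 7 days, and 0 to 0 and 1 to 3 for 14 against 3 days; any difference was called for 13 to 20 members. Without sham replicate 4, which stood apart, 13 were higher and 3 lower at 3 days, 8 and 1 at 7 days and 13 and 3 at 14 days. Of 45 called comparisons of members, 1 changed sign in any setting: with near-identical copies added, Gapdh at 7 days was -0.34. Passing the threshold was less stable than the sign. Of the 14, 7 and 11 higher calls against sham at 3, 7 and 14 days, 9, 4 and 6 held without any 1 library. In every setting, 8, 1 and 5 of them held. The lower calls against sham each ended without some library. Between injury times, 1 lower call for 7 against 3 days and 1 for 14 against 3 days held in every setting.

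Depth limits Ddit4 most, with as few as 6 counts in a library.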

Other observations

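The other HIF targets and partners named here did not pass the test in any comparison with sham. They were picked after their values were seen. Ankrd37 averaged 4.62 ± 1.38 CPM at 3 days, 7.58 ± 2.37 CPM at 7 days and 5.26 ± 0.401 CPM at 14 days, against 5.11 ± 1.21 CPM in sham (SD, n = 3 each). Kdm3a, a histone demethylase, averaged 339 ± 19.2 CPM at 3 days, 245 ± 29.9 CPM at 7 days and 286 ± 17.2 CPM at 14 days, against 273 ± 48.4 CPM in sham. Bnip3l, the relative of Bnip3, averaged 68.1 ± 11.1 CPM at 3 days, 65.5 ± 12.5 CPM at 7 days and 84.5 ± 3.84 CPM at 14 days, against 64.0 ± 6.52 CPM in sham. The HIF partner subunit Arnt averaged 151 ± 7.88 CPM at 3 days, 160.4 ± 4.96 CPM at 7 days and 179 ± 12.2 CPM at 14 days, against 187 ± 37.4 CPM in sham.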
